A study of Mus musculus with 16 samples.

Results

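The comparison asks what an antibody that stimulates CD40 did to transferred CD4+ T cells that met no specific antigen. AND T cells carry a transgenic T cell receptor for a moth cytochrome c peptide. Lymph node cells of AND donors marked with CD90.1 were given to B10.BR mice, and CD4+CD90.1+ cells were sorted 60 h later from subcutaneous lymph nodes of mice labelled as 6 to 8 weeks old. Of the 16 arrays of the study, 5 were chosen by their titles: 2 from recipients given FGK45.5, the CD40 antibody (FGK in the titles), and 3 from recipients given PBS, both titled as receiving no doxycycline.

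These recipients were Ii-rTA-, TIM+ and so lacked the transactivator that drives the peptide gene. The treatment notes of both FGK arrays and of PBS replicate 3 nevertheless list doxycycline through the experiment, and PBS replicates 1 and 2 have no such note. Whether these recipients received doxycycline is therefore unsettled, while titles, descriptions and genotype all place them in the group without antigen. The 11 other arrays came from Ii-rTA+, TIM+ recipients with transient antigen (3 PBS, 2 FGK) or persistent antigen (3 PBS, 3 FGK), and they enter the shared estimate of the spread. Whether replicates came from different animals is not stated, and every p-value here reflects the scatter among these samples, which may be technical. The sort did not select on the transgenic receptor, so donor CD4+ T cells of other specificity could be in it.

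CD40 sits on dendritic cells, macrophages and B cells, and its natural ligand CD40L is carried by activated helper T cells. Its engagement makes dendritic cells raise costimulatory molecules and release cytokines such as IL-12 and type I interferon. A resting T cell with no antigen can meet these cytokines without a signal through its receptor, which is called bystander exposure. Such exposure is best known in memory T cells, which can then make interferon gamma and chemokines.

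Levels are log2(intensity + 1), and differences are anti-CD40 minus PBS on that scale, which understates differences of dim genes. With limma over 18193 genes and no block for replicate number, 0 genes (0%) were called at a Benjamini-Hochberg adjusted p under 0.05. At an unadjusted p under 0.05 there were 317 genes (1.74%), 222 higher and 95 lower, and the smallest adjusted p was 1. Arrays of one replicate number deviated together, and with that number as a block 1 gene was called (0.0055%), while 965 (5.3%) had an unadjusted p under 0.05, 560 of them higher and 405 lower. That gene was Ccl5.

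The median 95% interval reached 0.55 to each side of the difference without the block and 0.39 with it. In simulated data of this design, 14.9% of genes planted with a difference of 1 were called without the block and 65.7% with it. For a difference of 2 the shares were 74.6% and 100%. A change of 1 on the log2 scale could thus pass unseen in most genes without the block. The planted genes were all above the median probe set (4.35), and the simulated noise was independent between arrays. The simulated shares therefore need not hold in the real data, where S100a6, at 2.38 with the block, was not called.

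Ccl5 encodes a chemokine that draws T cells, NK cells and monocytes and is made by effector and memory T cells among others. Its level was 7.50 and 7.48 in anti-CD40 replicates 1 and 2, against 5.79, 6.14 and 6.98 in PBS replicates 1 to 3. Both anti-CD40 arrays lay above every PBS array, and the PBS arrays were spread far more widely than the anti-CD40 arrays. Ccl5 rose by 1.50 ± 0.22 (SE, 95% interval 1.04 to 1.97) with the block (limma, adjusted p = 0.032). Without the block its difference was 1.19 ± 0.49 (SE) with an adjusted p of 1. Under 14 settings of the blocked fit Ccl5 was called in 7, with adjusted p from 2.1e-07 to 0.112, and the call was lost without PBS replicate 1 (0.096), PBS replicate 2 (0.112), anti-CD40 replicate 1 (0.0656) or anti-CD40 replicate 2 (0.0553).

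Several genes of effector and memory T cells had differences near or above that of Ccl5 but did not pass the test on all arrays. S100a6, a small calcium-binding protein, stood at 7.19 and 6.77 with anti-CD40 and at 3.80, 3.73 and 6.10 with PBS. PBS replicate 3 was much nearer to the anti-CD40 arrays than to the other PBS arrays, though the groups did not overlap. The difference was 3.39 within replicate 1 and 3.05 within replicate 2. The blocked fit gave 2.38 ± 0.63 (SE, adjusted p = 0.90). Without PBS replicate 3, the blocked difference was 3.22 and passed in limma with an adjusted p of 0.0013.

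Plac8, a cysteine-rich protein of leukocytes, was 7.43 and 6.16 with anti-CD40 and 5.19, 4.69 and 5.73 with PBS. The groups did not overlap, and the blocked difference was 1.61 ± 0.39 (SE, limma adjusted p = 0.78). Il21, a cytokine of helper T cells that acts on B cells, was 6.13 and 5.15 against 3.98, 3.82 and 4.39. Again the groups were separate, with a blocked difference of 1.70 ± 0.39 (SE, limma adjusted p = 0.78). The PBS mean of Il21 was 4.06, below the median probe set at 4.35. It passed the filter on level only through its anti-CD40 mean of 5.64, so its difference is a description. Another, dim probe set of Il21 differed by 0.02 without the block. Anxa2, a membrane-binding annexin, was 7.49 and 5.97 against 5.11, 5.07 and 5.91. Here the second anti-CD40 array lay just above PBS replicate 3. Its blocked difference was 1.31 ± 0.31 (SE, limma adjusted p = 0.78), and it was called at 1.64 (adjusted p = 0.023) without PBS replicate 3. Other probe sets of Anxa2, all dim, differed by 0.05 and 0.20 without the block.

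Cxcr3, the receptor for interferon-induced chemokines, was 8.10 and 6.17 with anti-CD40 and 5.76, 5.28 and 7.09 with PBS. The groups overlapped, since PBS replicate 3 exceeded the second anti-CD40 array. Nkg7, a protein of cytotoxic granules, was 7.92 and 6.81 against 6.44, 5.45 and 7.44, with the same overlap. Gzmb, a protease of those granules, was 6.11 and 4.61 against 4.19, 4.04 and 5.67. For Ifng, which encodes interferon gamma, the values were 6.08 and 4.49 against 5.37, 3.82 and 6.13, and the PBS arrays reached the highest level of the 5. PBS replicate 3 has no anti-CD40 partner in this comparison, so it enters neither pair difference given below.

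**Figure D1:**
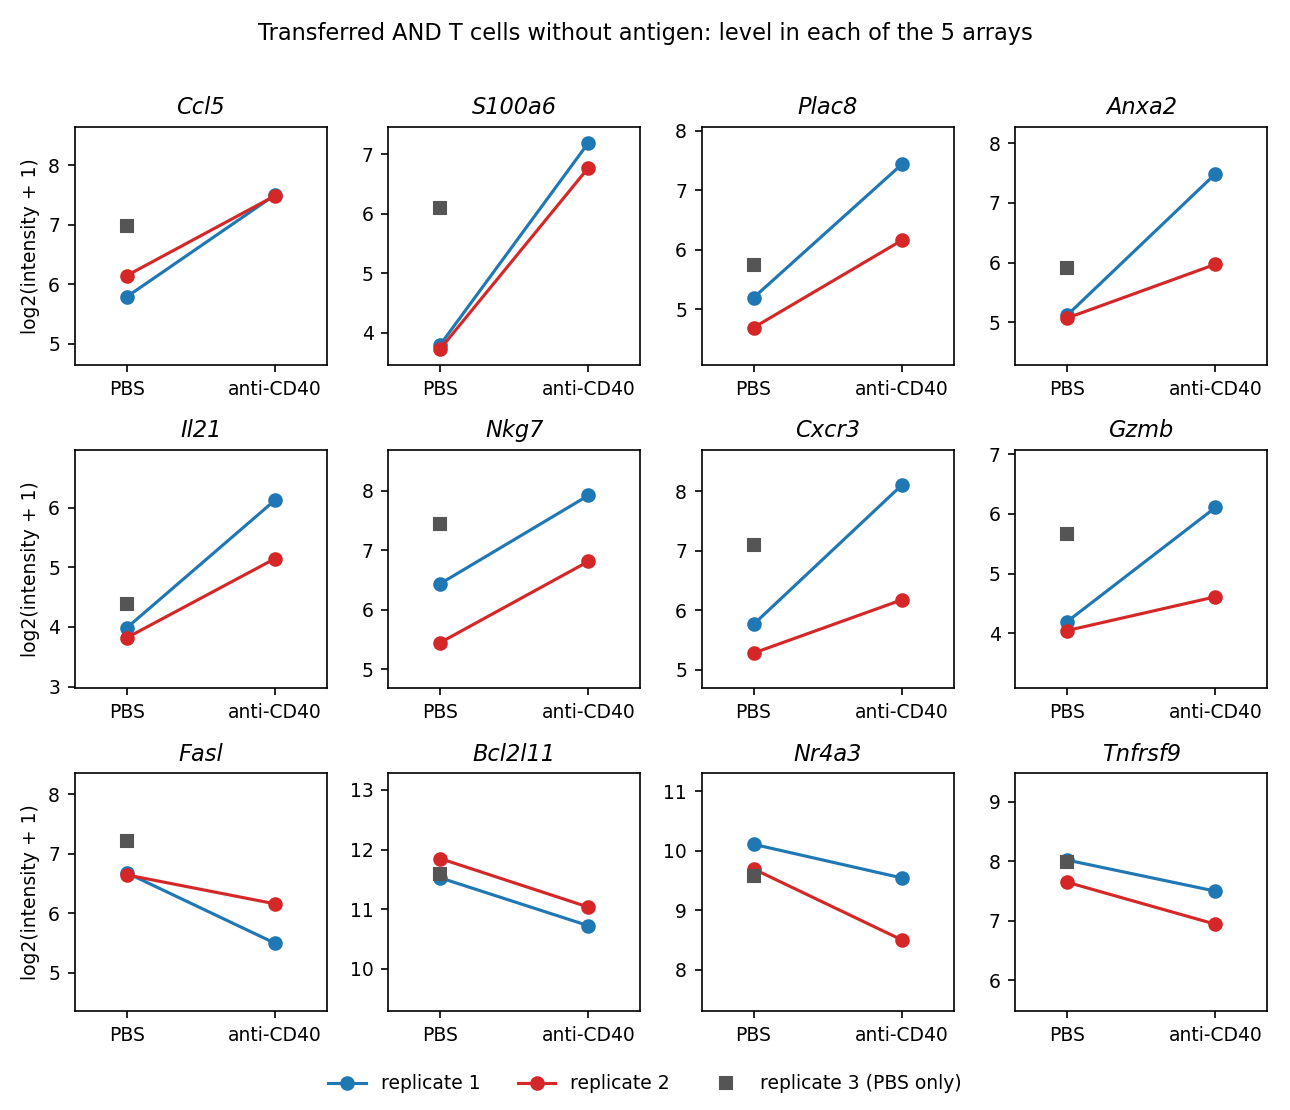
Level of 12 genes, log2(intensity + 1), in the 5 arrays without antigen. Lines join PBS and anti-CD40 arrays of replicate 1 (blue) and 2 (red), and the grey square is PBS replicate 3. Ccl5 and S100a6 go up in both lines and Bcl2l11 goes down, while the grey square lies near the anti-CD40 points for S100a6, Cxcr3 and Nkg7.

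Genes were next read by their difference within each replicate pair. A difference of at least 0.5 in the same direction in both pairs was found for 65 genes higher (0.357%) and 38 genes lower (0.209%) of 18193. The counterpart of opposite directions was 37 genes higher in replicate 1 and lower in replicate 2, and 13 the other way. Over all genes the differences in the pairs correlated at r = 0.10, a description across genes, which are not independent. The first pair was tighter than the second, with an SD of differences of 0.20 against 0.42. In the second pair the 6064 brightest genes had a median difference of −0.17 and the 6065 dimmest 0.03. Anti-CD40 replicate 2 was also the dimmest of the 5 arrays, at a mean intensity of 83.5 against 95.6 to 113.5, and the part of brightness in the results was not tested.

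**Figure D2:**
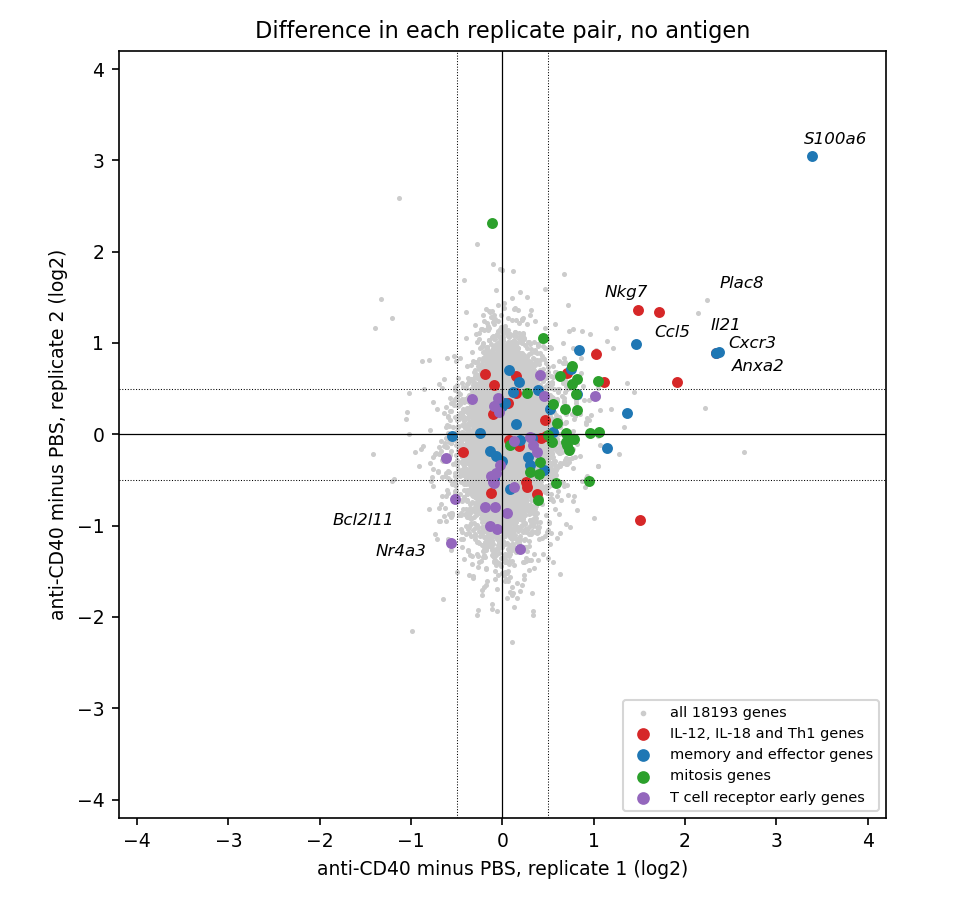
Anti-CD40 minus PBS (log2) in replicate 1 (horizontal) and replicate 2 (vertical) for 18193 genes, with genes of 4 lists in colour and dotted lines at 0.5 and −0.5. S100a6, at 3.39 and 3.05, stands farthest out at the upper right, and the grey cloud is taller than it is wide.

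Th1 is the helper type that makes interferon gamma. Of 24 measured genes of the IL-12, IL-18 and Th1 list, 7 were higher by at least 0.5 in both pairs and 0 lower. Among all genes the shares were 0.357% and 0.209%, so the 0 lower is near the share of all genes. The 7 were Ccl5, Nkg7, Cxcr3, Gzmb, Prdm1, Klrg1 and Ifng. Prdm1, a transcription factor of effector cells, was higher by 1.03 and 0.88. Klrg1, an inhibitory receptor of effector cells, was higher by 1.12 and 0.57. The median over the list was 0.33 in replicate 1 and 0.28 in replicate 2, against 0.03 and −0.04 over all genes. In the fit without a block, which includes PBS replicate 3, the list median was smaller, at 0.10. Over the settings tried it ranged from 0.0083 to 0.33. With log2(intensity + 16), which shrinks dim genes further, 4 genes of the list and 28 of all genes were higher by 0.5 in both pairs.

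The regulators at the head of this program did not share that pattern. Tbx21, the transcription factor that defines Th1 cells, was 1.50 higher in replicate 1 and lower by 0.94 in replicate 2. Il12rb2, the IL-12 receptor chain induced in Th1 cells, was lower in both pairs, at −0.13 and −0.64. Stat4, which relays IL-12, differed by 0.27 and −0.57, and Eomes, a relative of Tbx21, by 0.38 and −0.65. The IL-18 receptor genes Il18r1 and Il18rap differed by 0.14 and 0.63 and by 0.26 and −0.53. Of the list, 1 gene (Ccl5) was called with the block and 0 without.

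Of 31 measured memory and effector genes, 6 were higher by at least 0.5 in both pairs and 0 lower, against 0.357% and 0.209% of all genes. The 6 were S100a6, Anxa2, Cxcr3, Lgals1, Lgals3 and Crip1. Arrays did not overlap for 9 of the 31, which were higher with anti-CD40, against 6.12% of all genes, and 0 were separate in the lower direction, against 4.68%. Lgals1 and Lgals3 encode galectins, sugar-binding proteins, and were higher by 1.46 and 0.98 and by 0.75 and 0.72. Without antigen Lgals3 averaged 3.94 with PBS and 4.59 with anti-CD40. It thus reached the median probe set at 4.35 only with anti-CD40, and its difference is a description. Crip1, a LIM-domain protein, was higher by 0.83 and 0.92, and the annexin gene Anxa1 by 0.39 and 0.49. Cd44, the usual surface marker of antigen-experienced T cells, was not: it differed by −0.09 and −0.48. Of this list 0 genes were called in either fit, and its median was 0.28 and 0.24 in the pairs. In the fit without a block its median was 0.16, and over the settings tried 0.08 to 0.26.

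Interferon-stimulated genes encode antiviral proteins. Of 48 measured, 23 were above 0 in both pairs (47.9%) and 3 below (6.25%), against 28.2% and 23.9% of all genes. The sizes were small, with medians of 0.22 and 0.08, and 0 were called. Rsad2, an antiviral enzyme, was the 1 gene of the list past 0.5 in both pairs, at 7.27 and 7.34 against 6.55, 5.92 and 6.77. Its groups did not overlap, but 2 other probe sets of the gene differed by 0.0001 and 0.13. Ifit1, which binds foreign RNA, was 0.20 and 1.56 higher, Usp18 0.48 and 0.78, and Oas1a 0.49 and 0.54, while Ifit2 was lower in both pairs, at −0.13 and −0.96.

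Promoters are shown for 3 genes that were higher in both pairs and whose 250 bases before the start hold a motif of factors that act after T cell activation or interferon. They were chosen after the values were seen. RefSeq windows (GRCm38.p6) were found for 49 of the 61 genes that were higher in both pairs, above the median level and not clone, sex-linked or immunoglobulin names. The AP-1 motif TGANTCA, searched on both strands, was in 7 of the 49 (14.3%) and in 7.82% of 27025 genes, and the interferon-stimulated response element (GAAA, any 2 bases, GAAA) in 2 (4.08%) and 3.46%. The 27025 genes were not limited to those on the array or above the median level, so the shares come from unlike sets. A match is a description and not a shown binding site. Capitals mark the matches. The windows are Anxa2 at chr9:69453433-69453682 on the plus strand, Gzmb at chr14:56262335-56262584 on the minus strand and Rsad2 at chr12:26456453-26456702 on the minus strand. The AP-1 match starts 95, 58 and 87 bases before the start, and in Rsad2 the interferon element starts at 120.
Anxa2: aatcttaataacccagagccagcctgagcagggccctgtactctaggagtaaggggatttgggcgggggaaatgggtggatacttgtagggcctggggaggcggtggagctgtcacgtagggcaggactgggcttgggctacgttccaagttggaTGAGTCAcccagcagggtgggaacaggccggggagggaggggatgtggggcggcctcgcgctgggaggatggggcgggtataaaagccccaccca
Gzmb: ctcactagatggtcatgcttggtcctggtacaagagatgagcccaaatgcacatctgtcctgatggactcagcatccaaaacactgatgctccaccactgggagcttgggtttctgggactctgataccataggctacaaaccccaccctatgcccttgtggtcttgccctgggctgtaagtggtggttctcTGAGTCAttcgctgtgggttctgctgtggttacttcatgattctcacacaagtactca
Rsad2: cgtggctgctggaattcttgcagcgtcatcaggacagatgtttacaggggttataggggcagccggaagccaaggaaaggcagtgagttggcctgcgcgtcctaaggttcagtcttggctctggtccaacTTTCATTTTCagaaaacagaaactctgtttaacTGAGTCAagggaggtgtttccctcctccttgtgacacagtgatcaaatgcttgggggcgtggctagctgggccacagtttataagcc

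Genes that follow a signal through the T cell receptor were read in the same way. Of 26 measured, 12 were below 0 in both pairs (46.2%) and 3 above (11.5%), against 23.9% and 28.2% of all genes. The medians were −0.05 and −0.38. All 26 were above the median probe set, and the bright genes of the second pair as a whole had the median of −0.17 given above, whose part in this count was not tested. Nr4a3, a nuclear receptor induced by receptor signals, was 9.54 and 8.50 against 10.11, 9.69 and 9.58. The groups were separate by a narrow margin, and 2 other probe sets of the gene were of opposite sign, at 0.35 and 0.22. Tnfrsf9, the costimulatory receptor 4-1BB, was 7.50 and 6.94 against 8.02, 7.65 and 7.99. Egr2, Egr3, Myc and Dusp2 were lower by less than 0.15 in replicate 1 and by 0.54 to 1.04 in replicate 2. The early marker Cd69 differed by 0.13 and −0.58, and Cd40lg, the gene of the CD40 ligand itself, by 0.18 and −0.10.

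Genes of survival and death showed no common direction: of 25 measured, 7 were above 0 in both pairs (28%) and 7 below (28%). These shares were near the 28.2% and 23.9% of all genes, and 0 of the 25 were called. Pmaip1 (Noxa, which promotes death) was higher by 0.86 and 0.83, while Bcl2l11 and Fasl were lower. Bcl2l11 (Bim, which starts death of T cells deprived of cytokine) was 10.72 and 11.03 with anti-CD40 and 11.53, 11.85 and 11.58 with PBS. The groups did not overlap, and the pairs differed alike, at −0.81 and −0.82. The blocked difference was −0.74 ± 0.25 (SE, limma adjusted p = 0.90). Fasl, the ligand of the death receptor Fas, was 5.50 and 6.16 against 6.68, 6.65 and 7.21. Its groups were also separate, with a blocked difference of −0.84 ± 0.26 (SE, limma adjusted p = 0.90).

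Genes of cell division differed between the pairs. Over 29 mitosis genes the median was 0.69 in replicate 1 and 0.02 in replicate 2. Of these, 5 were higher by at least 0.5 in both, against 0.357% of all genes: Ccnb2, Birc5, Aurka, Aurkb and Kif20a. The count was 1 with log2(intensity + 16) and 7 with cyclic loess. Over the settings tried the list median ranged from −0.48 to 1.27. Ccnb2, cyclin B2, was 7.02 and 5.41 against 6.26, 4.66 and 5.34. The PBS value of replicate 1 exceeded the anti-CD40 value of replicate 2, so the groups overlapped although both pairs went up. Mki67, the proliferation marker Ki-67, differed by 0.71 and −0.12. Over 32 DNA replication genes the medians were 0.39 and −0.17, and of 29 genes of ribosome biogenesis, which grows with cell activation, 16 were below 0 in both pairs (55.2%) and 3 above (10.3%), against 23.9% and 28.2% of all genes. All 29 were above the median probe set, and the part of the −0.17 of bright genes in the second pair was not tested here either.

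**Figure D3:**
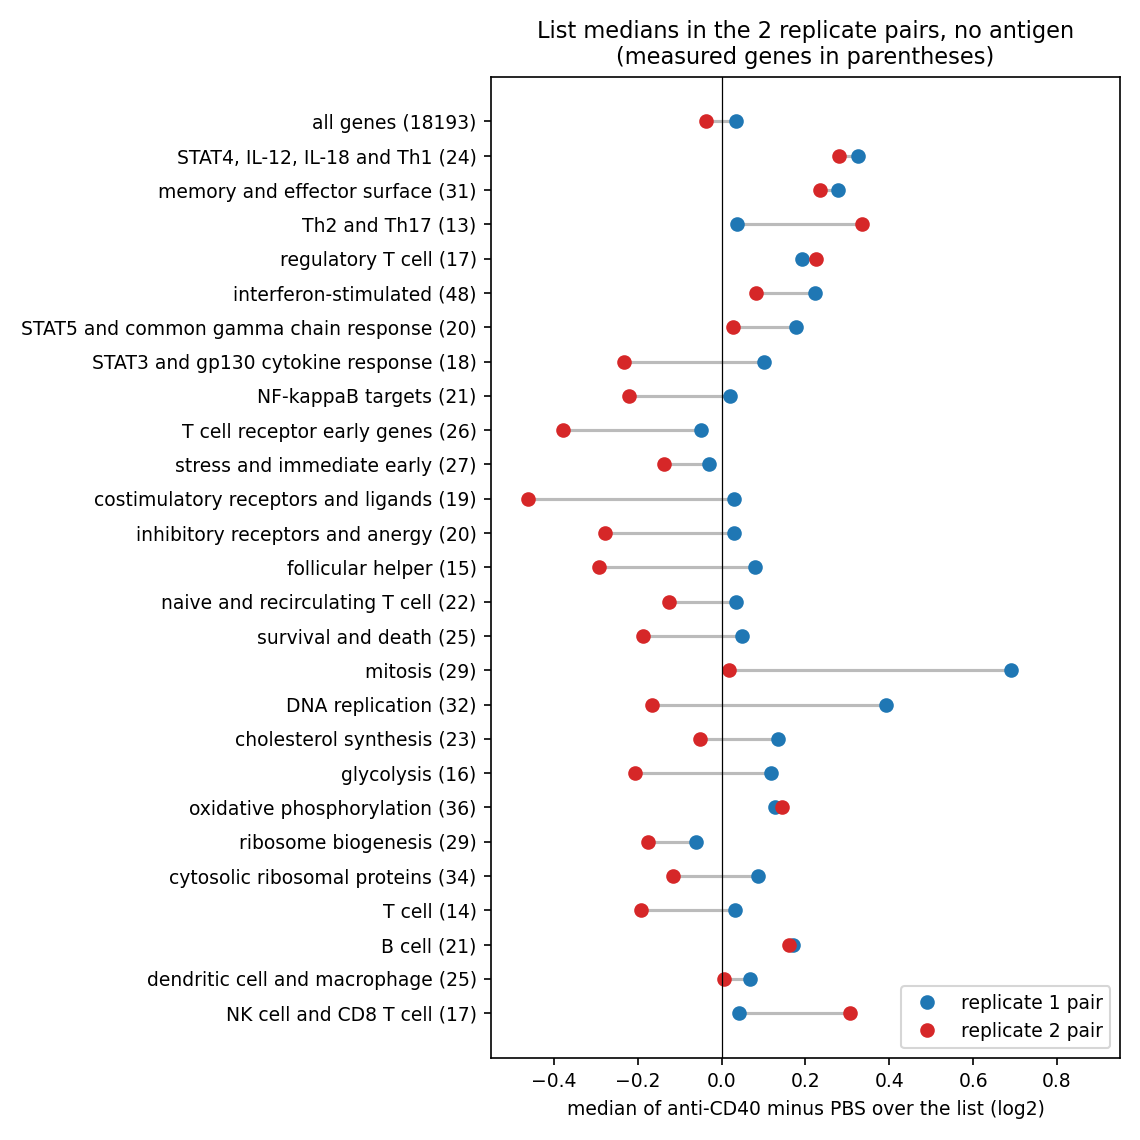
Median of anti-CD40 minus PBS (log2) over each gene list in replicate 1 (blue) and replicate 2 (red), with the number of measured genes in parentheses. The Th1 list and the memory list lie right of 0 in both pairs, while mitosis genes reach 0.69 in replicate 1 and 0.02 in replicate 2.

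Other cell types were checked by their markers, summed as intensities. In bulk samples fewer cells of a type and less RNA per cell cannot be told apart. All 14 measured T cell markers were above the median probe set, and Cd4 was 7.82 and 7.37 with anti-CD40 and 6.98 to 7.76 with PBS. The 14 markers summed to 17514 and 11258 with anti-CD40 against 17052, 14331 and 15405 with PBS, lowest in anti-CD40 replicate 2. Without the block their median difference was −0.12, and 4 of the 14 were above 0. For NK and CD8 T cells 10 of 17 were above the median probe set, and their sum was 1134 and 756 with anti-CD40 against 834, 587 and 859 with PBS. Gzmb and Nkg7 belong to that list too, while Cd8a differed by 0.04 and 0.08 and Ncr1, an NK receptor, by −0.02 and 0.31. For dendritic cells and macrophages 14 of 25 were above it, with sums of 1225 and 1039 against 887, 915 and 930, and without Ccl5, which that list holds, 1045 and 860 against 833, 846 and 804.

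The dendritic cell markers Itgax and Cd83 differed by 0.26 and 0.28 and by −0.05 and −0.41. Il12b, the IL-12 subunit that dendritic cells make, lay between 3.51 and 3.83 in all 5 arrays, below the median probe set at 4.35. B cell markers (14 of 21 above the median probe set) summed to 1874 and 1521 against 1800, 1231 and 1790. Of the 21, 12 were above 0 in both pairs (57.1%) and 4 below (19%), against 28.2% and 23.9% of all genes. Ms4a1, the B cell antigen CD20, differed by 0.31 and 1.36. The part of these cell types in the differences above was not tested. Replicate 1 carried male RNA, by Eif2s3y at 9.84 and 9.93 against 2.68 to 2.75 in the others. Xist, a transcript of female cells, was 6.97 and 7.16 in replicate 1 and 10.89 to 11.31 in the others. In replicate 1 with antigen Xist was 5.10 to 5.93. Whether replicate 1 without antigen also held some female RNA was not tested. Within each pair both genes stood at similar levels.

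Other genes ranked highest by p in either fit, none of them called, were not in these lists. Acvr2b, an activin receptor, was 4.71 and 4.74 against 4.04, 4.12 and 4.11. The groups were apart by more than their spread, but Acvr2b was dim, and its difference was 0.63 ± 0.17 (SE). Other probe sets of Acvr2b, dimmer still, differed by 0.22 and 0.01. Pfdn1, a subunit of the prefoldin chaperone, was 5.08 and 5.45 against 4.35, 4.32 and 4.51. Hspa1b, an inducible heat shock protein whose near-identical copy Hspa1a makes its probe set uncertain, was 3.80 and 4.91 against 3.33, 3.32 and 3.27. Serpinb6b, a protease inhibitor, was 0.90 ± 0.29 (SE) higher.

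On the lower side were Gucy1b1 (a guanylate cyclase subunit, −0.88 ± 0.22 SE), Zfp566 (a zinc finger protein, −0.64), Pacc1 (a proton-activated chloride channel, −0.66), Rem2 (a small GTPase, −0.57), Wnt8b (a Wnt ligand, −0.55), Edn1 (endothelin 1, −0.52) and Zfp619 (−0.56). For Wnt8b 2 other probe sets were of opposite sign, and for Gucy1b1 another of similar level differed by 0.08. Of 37 named genes, 17 had other probe sets, 31 in all. Without the block 9 of the 31, in 7 genes, were of opposite sign. Hspa1b, Gucy1b1 and Wnt8b were dim, with means over all arrays of 3.40, 3.84 and 4.15 against the median probe set at 4.35. They reached it only in the group where they were higher, so the filter favoured their difference and these values are a description. The same holds for Acvr2b, with PBS arrays at 4.04 to 4.12, and for Il21, with a PBS mean of 4.06. Of 27 measured genes chosen for their known roles in helper T cells, 0 were called, and their differences without the block ran from −0.61 to 1.09. Cxcr3, Ifng and Klf2 passed 0.5 in both pairs. Klf2, a factor that keeps T cells recirculating, was higher by 0.54 and 0.58.

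The 11 arrays with antigen gave gene lists that share no array with this comparison. Of 114 genes higher under persistent than transient antigen with PBS (limma, no block), 14 were higher by at least 0.5 in both pairs here (12.3% against 0.357% of all genes). They were Plac8, Il21, Anxa2, Nkg7, Gzmb, Prdm1, Lgals3, Plek, Osbpl3, Stx11, Tgfb3, Cdc6, Kntc1 and Birc5. The 114 genes had a median of 0.45 in replicate 1 and −0.01 in replicate 2, 51 were above 0 in both (44.7%) and 3 below. Of the 50 genes lower under persistent antigen, 0 were past 0.5 in both pairs in either direction. That is near the shares of all genes, 0.357% higher and 0.209% lower. With the block the list grew to 1304 genes, of which 37 (2.84%) were higher by at least 0.5 in both pairs. Of these 1304, 29.4% were above 0 in both pairs, near the 28.2% of all genes, with medians of 0.14 and −0.11.

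With persistent antigen and PBS these genes stood higher than with anti-CD40 and no antigen. Plac8 averaged 5.21 with PBS and 6.80 with anti-CD40 in the absence of antigen, but 7.31 with transient antigen and PBS and 9.81 with persistent antigen and PBS. Il21 averaged 4.06 and 5.64 without antigen, 4.07 with transient antigen and PBS and 8.66 with persistent antigen and PBS. S100a6 averaged 4.54 and 6.98 without antigen, 7.03 with transient antigen and PBS and 9.99 with persistent antigen and PBS. Ccl5 was different in order: its 7.50 and 7.48 were above every other array, the next being 7.29 with persistent antigen and anti-CD40.

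**Figure D4:**
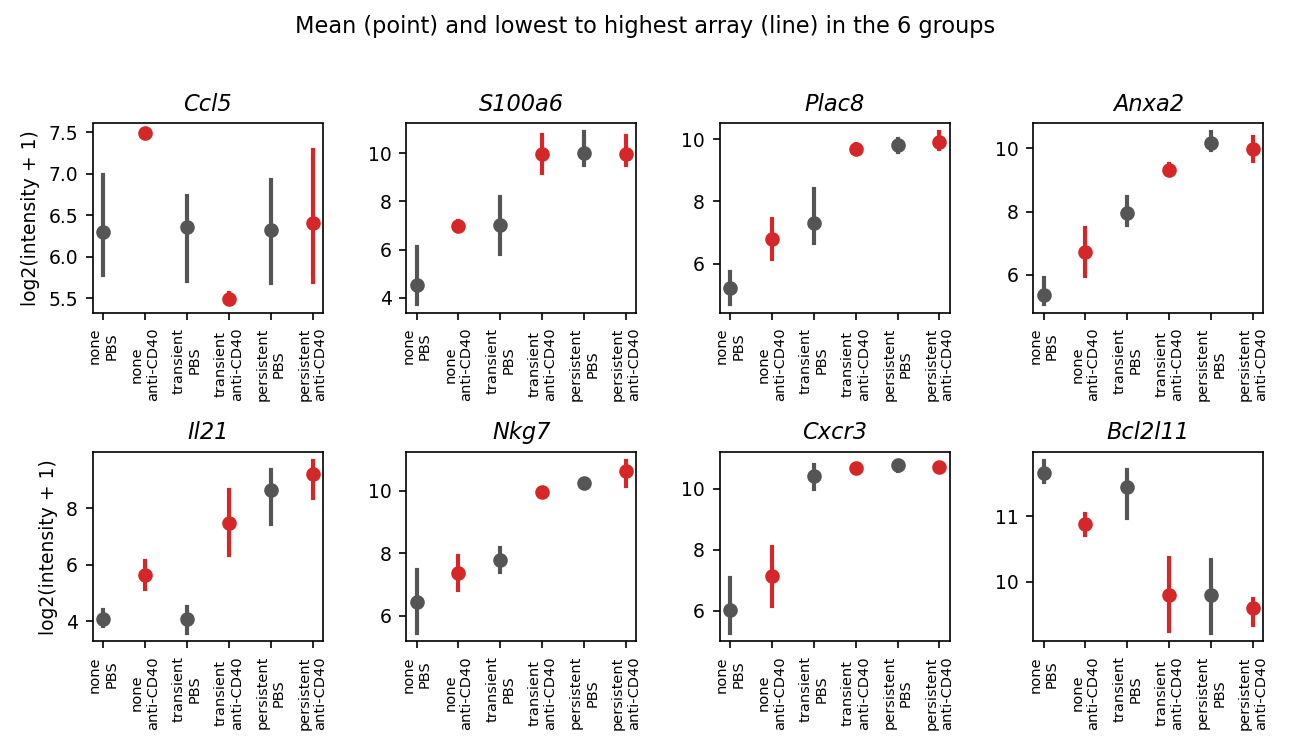
Level of 8 genes, log2(intensity + 1), in the 6 groups, as the mean (point) and the range from lowest to highest array (line), with PBS in grey and anti-CD40 in red. Ccl5 is highest without antigen and with anti-CD40, at 7.49, whereas S100a6, Plac8 and Il21 are highest with antigen.

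The anti-CD40 difference itself was then compared between regimes by an interaction term. Without the block 0 genes differed between no antigen and transient antigen (895, or 4.92%, at an unadjusted p under 0.05). With the block 672 did (3.69%), 562 with a lower difference without antigen (3.09%) and 110 with a higher one (0.605%). That count was 99 without anti-CD40 replicate 1 of transient antigen, 107 without anti-CD40 replicate 2 of no antigen, and 399 and 414 without PBS replicates 1 and 3 of transient antigen. Against persistent antigen 0 genes differed in either fit (157, or 0.863%, and 667, or 3.67%, at an unadjusted p under 0.05).

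The counts that follow are of genes called for the interaction with transient antigen in the blocked fit. Of all genes 3.09% were called lower and 0.605% higher, and without the block 0 were called. Genes of DNA replication were mostly on the lower side. Of 32 genes 28 had a lower anti-CD40 difference without antigen than with transient antigen, and 7 to 29 when each array was left out, with 7 without anti-CD40 replicate 2 of no antigen. The list's median blocked difference was 0.05 without antigen, 1.87 with transient and 0.24 with persistent antigen. Of 29 mitosis genes 11 differed in this way, but 0 without anti-CD40 replicate 2 of no antigen, and of 29 ribosome biogenesis genes 13, or 3 to 15. Of 22 genes of naive and recirculating T cells 5 had a higher difference without antigen, or 2 to 6.

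Ccl5 was on the higher side. Its blocked difference was 1.50 without antigen, −0.55 with transient and 0.09 with persistent antigen, and the interaction with transient antigen was 2.05 ± 0.30 (SE, limma adjusted p = 0.0033). It was called under all 19 settings with the block, at 1.74 to 2.32, and under 0 of 19 without. Rsad2 also differed, by 1.98 ± 0.53 (SE, adjusted p = 0.045), in 9 of 19 blocked settings. On the lower side Gzmb differed by −2.88 ± 0.46 (SE, limma adjusted p = 0.0033), at 1.05 without antigen and 3.93 with transient antigen.

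S100a6, Plac8 and Anxa2 had blocked differences of 2.38, 1.61 and 1.31 without antigen and 2.89, 2.41 and 1.31 with transient antigen, where all passed with the block. With persistent antigen, where levels were already high with PBS, the differences were −0.04, 0.10 and −0.18. Their interactions with transient antigen were −0.51, −0.79 and −0.01, none of them called. Bcl2l11 fell by 1.61 with transient antigen and stood at −0.74 without antigen. In the blocked fit 10.5% of all genes were called for anti-CD40 with transient antigen, 7.59% higher and 2.92% lower, and 0 with persistent antigen.

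**Figure D5:**
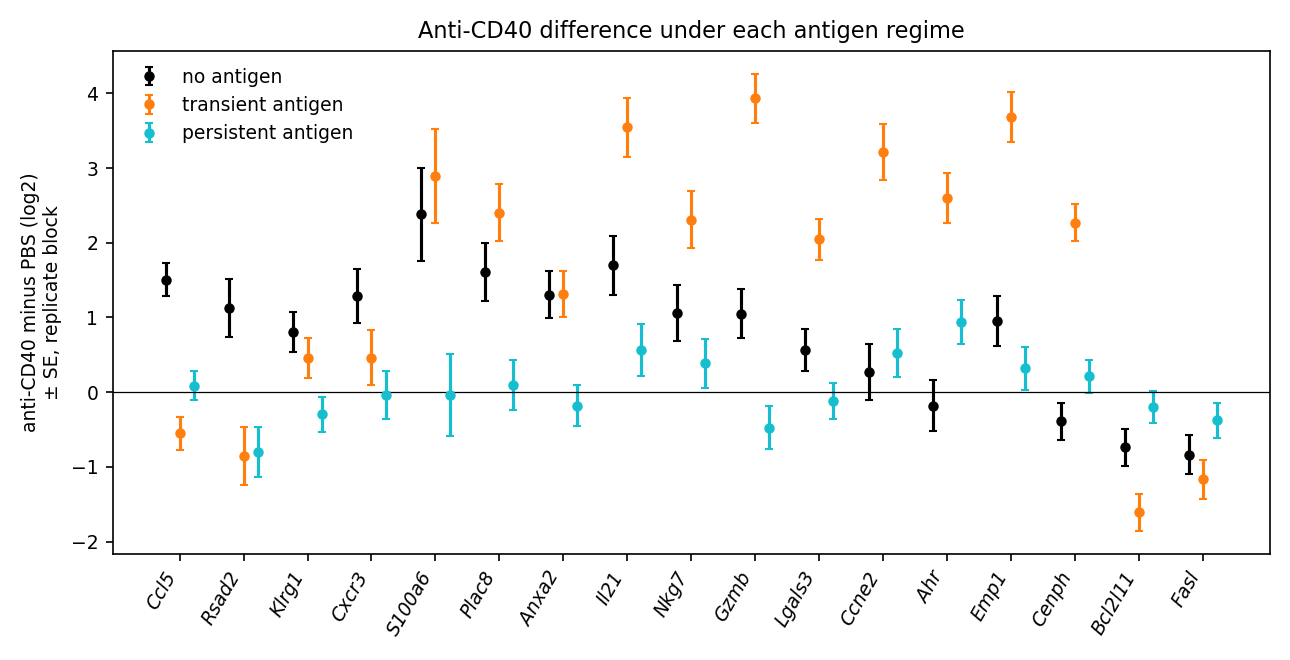
Anti-CD40 minus PBS (log2, replicate block) for 17 genes without antigen (black), with transient (orange) and with persistent antigen (cyan), as the estimate with its SE. Ccl5 has its highest value without antigen at 1.50, and Gzmb its highest with transient antigen at 3.93.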

How the data were processed

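RNA of sorted cells was amplified in 2 rounds, labelled with biotin and hybridised to 16 Affymetrix arrays, 1 per sample, per the labels' protocols. The authors deposited linear intensities of 45101 probe sets; RMA is named, without a version, in the submitters' processing notes. Here log2(intensity + 1) was taken, without another normalization step. Of the probe sets 64 were controls, 932 had several symbols, 9160 were not named and 34945 had 1 symbol, giving 18193 genes, each represented by 1 probe set, the brightest on average over all arrays. No 2 arrays were identical, and their number limits the precision.

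Groups came from the titles. limma 3.58.1 in R 4.3.3 (with the data.table package, version 1.17.8) fitted 6 group means over all 16 arrays with an intensity trend and without a block. Genes were called at a Benjamini-Hochberg adjusted p under 0.05 over the 18193 genes. The interaction terms came from the same fit. A second fit added the replicate number as a block. For this pairing, residuals about the group means were correlated between arrays. The 36 pairs sharing a number gave 0.48 to 0.81 (median 0.68), and 70 pairs with unlike numbers −0.81 to 0.60 (median −0.53). Residuals sum to 0 within each group, which pushes unlike numbers below 0, so their negative median is not separate evidence. The labels do not explain the numbers, so the pairing rests on these values. The script was tested on simulated data.

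The members and gene lists were chosen with earlier results of these data known. Named genes were those called, or otherwise the 6 with the smallest p in each direction in each fit, without overlap of the groups and with the mean of the higher group above the median probe set, the largest called members of the lists, a list of 30 helper T cell genes, and the 5 largest interactions. Genes past 0.5 in both pairs, and list members named for their role, were added after their values were seen. Lists named above are described by counts and medians. Not every list is reported here. Alternatives were the block, the run as block, the groups compared alone, no intensity trend, a filter at the median probe set, other probe set rules, array weights, cyclic loess, log2(intensity + 16), and the omission of each array in turn. A run was inferred here as a stretch of consecutive array numbers. By these numbers, replicate 2 without antigen lay in another run than replicate 2 with antigen, and the replicate block joined them.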

Additional observations from a re-analysis of the deposited data

Results flagged for a closer look

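The anti-CD40 difference without antigen minus that with transient antigen, in limma with the replicate block, singled out 8 named genes by an adjusted p under 0.05 for the interaction. It was 2.05 for Ccl5 (19 of 19 blocked settings) and 1.98 for Rsad2 (9 of 19). It was −2.95 for Ccne2, cyclin E2, which starts DNA replication, and −2.88 for Gzmb. It was −2.78 for Ahr, the aryl hydrocarbon receptor, −2.73 for Emp1, an epithelial membrane protein, −2.66 for Cenph, a centromere protein, and −1.48 for Lgals3 (9 of 19). Lgals3 and Rsad2 were chosen after their values were seen. Emp1 averaged above the median probe set at 4.35 only with transient antigen and anti-CD40, at 6.62. It averaged 3.05 (PBS) and 3.83 (anti-CD40) without antigen and 3.11 with transient antigen and PBS. The filter on level thus favoured its interaction, and the value is a description. Cenph was dim without antigen, at 3.85 with PBS and 3.57 with anti-CD40. In the fit without a block 0 of these interactions were called. With 2 or 3 arrays a group, no array could be tested as an outlier.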

How the results depend on the processing

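For anti-CD40 against PBS without antigen, the count of 0 called genes became 1 (Ccl5) with the replicate block and 2 (Ccl5 and Lgals1) with the run as block. It ranged from 0 to 7 when each array was left out, the 7 without anti-CD40 replicate 1. The blocked count of 1 became 72 with the groups compared alone, a fit with 1 residual degree of freedom, and 0 with array weights, with the mean of probe sets and with each probe set. It ranged from 1 to 51 when each array was left out: 51 without anti-CD40 replicate 1, 3 without PBS replicate 3 (Ccl5, S100a6, Anxa2), 2 without PBS replicate 1 (Frmd4b, H2-Ob), and 1 each without PBS replicate 2 (Adamts20) and anti-CD40 replicate 2 (Maf).

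For the interaction with transient antigen, 0 genes became 672 with the replicate block and 935 with the run as block, and 0 to 1 with each array left out. The 672 ranged from 99 to 879 with each array left out, with 107 without anti-CD40 replicate 2 of no antigen and 399 and 414 without PBS replicates 1 and 3 of transient antigen. The interaction with persistent antigen stayed at 0 with either block and ranged from 0 to 3 in the blocked fit with each array left out. A group left with 1 array is assumed to vary like the others.

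Over the arrays left out in turn, Gzmb reached 1.47, Ifng 0.98 and Ifit1 1.43. Differences that turned sign were Wnt8b at 0.0118 with the mean of probe sets, Gzmb at −0.0249 without anti-CD40 replicate 1, Ifit1 at −0.0166 without anti-CD40 replicate 2, and Ifng at −0.21 with array weights, −0.46 without PBS replicate 2 and −0.62 without anti-CD40 replicate 1. The cause was not tested. On all arrays the replicate pairing changed no call in this comparison but that of Ccl5. Genes past 0.5 in both pairs numbered 81 higher and 32 lower with cyclic loess, 133 and 83 at a step of 0.4, 24 and 4 at 0.7, and 7 and 0 at 1, settings chosen after seeing the data.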

Other observations

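Genes of mitochondrial respiration had small differences, whose sign depended on the fit. Of 36 genes of oxidative phosphorylation, 20 were above 0 in both pairs (55.6%) and 3 below, against 28.2% and 23.9% of all genes. Their medians were 0.13 and 0.14 in the pairs, but −0.02 in the fit without a block, where 17 of 36 were above 0, and 0 were called. Cycs, cytochrome c, differed by 0.44 and 0.28, and Uqcrc1, a subunit of complex III, by 0.19 and 0.50.

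Costimulatory receptors and ligands had medians of 0.03 and −0.46 over 19 genes. Cd28, the main costimulatory receptor, differed by 0.03 and −0.77, and Tnfsf11, the ligand RANKL, by 0.09 and −1.02. Tnfrsf4, the receptor OX40, was higher in both pairs at 0.46 and 0.42.

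In the regulatory T cell list Nrp1, a semaphorin co-receptor, was 1.37 and 0.56 higher and Ebi3, a cytokine subunit, 0.45 and 0.97. Foxp3, the factor that defines those cells, differed by 0.12 and −0.57.

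Outside the lists, Plek, a platelet and leukocyte signalling protein, was 5.11 and 4.72 with anti-CD40 and 3.86, 3.56 and 4.19 with PBS. Ctla2a, a protease inhibitor of activated T cells, was 5.44 and 4.93 against 4.23, 3.99 and 3.94. Both genes had separate groups and neither was called. On average both reached the median probe set at 4.35 only with anti-CD40, with PBS means of 3.87 and 4.05, so these values are a description.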
